A study of Mus musculus with 36 samples.

Results

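Neurexins, neuroligins and latrophilins are cell adhesion molecules that meet across the synaptic cleft. The 8 members described here are the neurexins Nrxn2 and Nrxn3, the neuroligins Nlgn1, Nlgn2 and Nlgn3 and the latrophilins Adgrl1, Adgrl2 and Adgrl3. They were taken by gene symbol, with earlier results of these data known, and are 8 of the 16614 genes in the count table. Neurexins sit mainly in the presynaptic membrane and bind neuroligins on the other side of the cleft. Latrophilins are adhesion G protein-coupled receptors that bind teneurins and FLRT proteins and, for some members, neurexins. Through their intracellular tails neurexins and neuroligins recruit the scaffolds of the presynaptic terminal and of excitatory or inhibitory postsynapses.

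The libraries came from whole brains of C57BL/6 wild-type (WT) mice and of FMR1 KO mice, which lack FMRP, at 5 days of age, with 10 brains pooled for a preparation. Ribosome-protected fragments (RPFs) were sequenced from the sucrose gradient pellet, which holds RNA granules with stalled ribosomes, and from fraction 5/6, labelled polysome. RNA-seq was run on whole-brain RNA. In the standard preparation the buffer held 10 mM MgCl2 and nuclease was high; in the low nuclease preparation MgCl2 was 2.5 mM. Each of the 12 combinations of genotype, library type and preparation has 3 libraries (36 in all), and the sources used here name no promoter or Cre that limits the knockout to a cell type.

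Nrxn2 lies at chr19:6418731-6544169, plus strand, and Nrxn3 at chr12:88722876-90334935, plus strand, both in GRCm38. The neuroligin genes are Nlgn1 at chr3:25426215-26332460, minus strand, Nlgn2 at chr11:69823122-69837784, minus strand, and the X-linked Nlgn3 at chrX:101299168-101325963, plus strand. Adgrl1 lies at chr8:83900105-83941954, plus strand, Adgrl2 at chr3:148815583-148990555, minus strand, and Adgrl3 at chr5:81020138-81825133, plus strand. All 8 are protein-coding, and all 8 passed the filter on low counts in all 13 comparisons. Exons of Nrxn2 overlap those of the antisense gene Slc22a12. Strand-specific counting is not stated in the sources used here, so reads from that stretch cannot be told apart. The remaining members except Nlgn2 overlap genes that the count table does not list, by up to 3823 bases (Nlgn3). GC content of the transcripts runs from 41.1% in Nlgn1 and 47.5% in Nrxn3 to 59.1% in Adgrl1, 60.7% in Nlgn2 and 62.2% in Nrxn2.

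RPF pileups that the study's peak caller marked were deposited for the 12 standard RPF libraries. Among the members, peaks were listed only for Nlgn2, which encodes the neuroligin of inhibitory synapses: 1 of the 8 members had any, against 37.5% of the genes in the count table. The Nlgn2 peak was listed in 6 of the 12 libraries. These were 2 of 3 WT pellet, 1 of 3 FMR1 KO pellet, 1 of 3 WT fraction 5/6 and 2 of 3 FMR1 KO fraction 5/6 libraries. No group had the peak in all replicates. The WT fraction 5/6 libraries without it include the library labelled replicate 3, which goes against its label (described below). The middle of the peak lay between bases 241.5 and 246.5 of a 5003-base transcript, within 6 bases of each other in all 6 libraries. This is not the 5568-base transcript given for Nlgn2 with the count table, on which no peak was listed. The coding sequence of the 5003-base transcript starts at base 412, which puts the peak in its 5′ UTR, in exon 1. Over all deposited peaks on annotated coding transcripts, 1.58% had their middle in a 5′ UTR and 97.8% in the coding sequence. The height was 14 reads in both WT pellet libraries, 10 reads in the FMR1 KO pellet library, 17 reads in the WT fraction 5/6 library and 8 and 9 reads in the FMR1 KO fraction 5/6 libraries. These are low counts: 5 of the 6 peaks were below the median height of their library.

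The sequence under the peak is shown because it holds the only ATG in the 5′ UTR of the 5003-base Nlgn2 transcript. Both the peak and the ATG read on the minus strand of GRCm38 (chr11:69834589-69834618, with the ATG in capitals).
Nlgn2 5′ UTR: ATGgagagaaatagactcctcttctgtccc
The ATG begins at base 232 of the transcript. Read from it, 11 codons come before an in-frame stop at base 265, ahead of the start of the coding sequence. The bases common to all 6 peaks are 236 to 257, inside this reading frame, and 4 of the 6 peaks covered the ATG itself. A 30-base window centred on the peak held ATG in each of the 6 libraries, which list the same site and the same ATG. The sequence is shown for its ATG, so the shares that follow are a description. Such a window held ATG in 49.5% of the 4358 peaks in 5′ UTRs, where a site also counts anew in each library. Of all 30-base windows in the 5′ UTRs of transcripts with peaks, 13.6% held ATG, on the transcript's strand only. Whether ribosomes initiate at the Nlgn2 ATG was not tested.

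**Figure D1:**
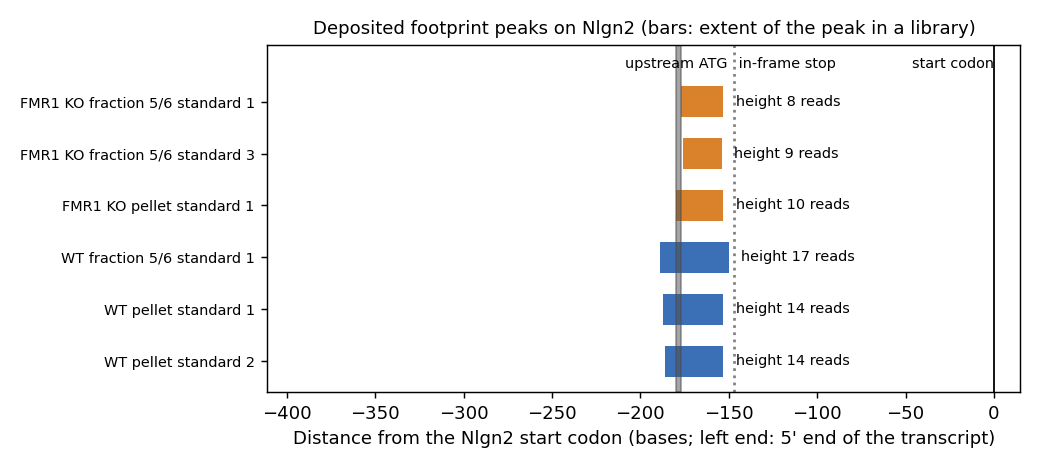
Extent of the deposited Nlgn2 peak in each of the 6 libraries that list it, against the distance in bases from the annotated start codon (WT blue, FMR1 KO orange; the grey band is the upstream ATG and the dotted line its in-frame stop). All 6 bars lie in the same stretch of the 5′ UTR, with heights of 8 to 17 reads.

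Several properties of the libraries touch every value below. Counts without Cdk8 were 4284209 to 21274803 in the standard RPF libraries and 112240104 to 147207607 in the standard RNA libraries; Cdk8, a single row with 36.7% to 63.4% of the standard RPF counts, was taken out first. Levels are CPM, counts scaled to a common depth over the remaining counts. Fmr1 was 64.6 to 67.8 CPM in the standard WT pellets and 4.79 to 4.93 CPM in the FMR1 KO pellets. In standard WT fraction 5/6 it was 100.1, 68.6 and 3.17 CPM, so the library labelled WT fraction 5/6 replicate 3 goes against its label, and the members' comparisons that use it are also given without it. In 3 of the 6 low nuclease RNA libraries (FMR1 KO replicates 2 and 3 and WT replicate 2), 10 genes held 81.5% to 85.0% of the counts. The neuron markers Tubb3, Map2, Snap25, Syn1, Rbfox3 and Stmn2 were all detected in every group, the 4 red cell globins summed to 225 to 523 CPM in standard RNA and 3.27 to 14.2 CPM in standard RPF libraries, and of the liver markers Apoa1 was near 0.

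In whole-brain RNA of the standard preparation the members fell into a high and a low tier. Per kb of exon, Adgrl1, the latrophilin first known as the receptor of a spider toxin, was highest, at 29.3 ± 3.35 CPM per kb in WT (SD, n = 3). Nlgn2 followed at 23.9 ± 3.59 and Nrxn2 at 17.7 ± 1.26 CPM per kb. The other 5 lay between 3.78 ± 0.483 (Adgrl2) and 8.62 ± 4.54 CPM per kb (Nrxn3). In WT each of the 3 upper steps per kb of exon, from Adgrl1 down to Nrxn3, was larger than the SD of either gene. Below Nrxn3 no step was, so the order of Adgrl3, Nlgn3, Nlgn1 and Adgrl2 is not set by these libraries. In FMR1 KO RNA the same 3 genes led, at 31.0 ± 8.28, 24.4 ± 6.38 and 17.3 ± 4.70 CPM per kb. Adgrl1 and Nlgn2 were within their spread there. Per kb of coding sequence, Adgrl1 (55.0 ± 6.29) and Nlgn2 (55.1 ± 8.27 CPM per kb) were level in WT RNA, so their order depends on the scale.

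The RNA libraries did not all give the same balance of members. WT RNA gave 174, 85.7 and 66.4 CPM for Nrxn3 and 104, 54.0 and 41.5 CPM for Nlgn1, which encodes the neuroligin of excitatory synapses. The same libraries gave 227, 245 and 283 CPM for Adgrl1 and 117, 139 and 159 CPM for Nlgn2. WT replicate 1 was therefore high for the first pair and lowest for the second. FMR1 KO RNA gave 62.8, 85.8 and 73.7 CPM for Nrxn3 and 275, 164 and 279 CPM for Nrxn2, and replicate 2 was high for Nrxn3 and low for Nrxn2. Across the 8 members, the log2 deviation of a library from the mean of its group's other two followed GC content with Pearson's r of -0.84 in WT replicate 1 and -0.82 in FMR1 KO replicate 2 (8 genes from 1 library each, a description).

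Footprints were compared per kb of coding sequence, a different denominator from the exon length used for RNA, so the orders are not set against each other. Nrxn2 was highest in the standard pellet, at 10.3 ± 2.88 CPM per kb in WT (SD, n = 3) and 10.7 ± 1.50 in FMR1 KO. Adgrl1 (7.51 ± 2.37 in WT) and Nlgn2 (6.90 ± 1.46 in WT) came next and Adgrl2 was last, at 3.23 ± 1.40 CPM per kb. Per kb of exon, Nrxn2 (4.06 ± 1.13) and Adgrl1 (4.00 ± 1.26 CPM per kb) differed in the WT pellet by less than their SDs. On the coding scale, in WT no neighbouring pair differed by more than its SD, and in FMR1 KO only the step from Nrxn2 to Adgrl1 did. In fraction 5/6 Nrxn2 led as well, at 8.97 ± 1.84 CPM per kb in WT and 9.68 ± 4.37 in FMR1 KO. Without the library labelled replicate 3, Nrxn2 still led in WT fraction 5/6 at 7.94 ± 0.600 CPM per kb (SD, n = 2).

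**Figure D2:**
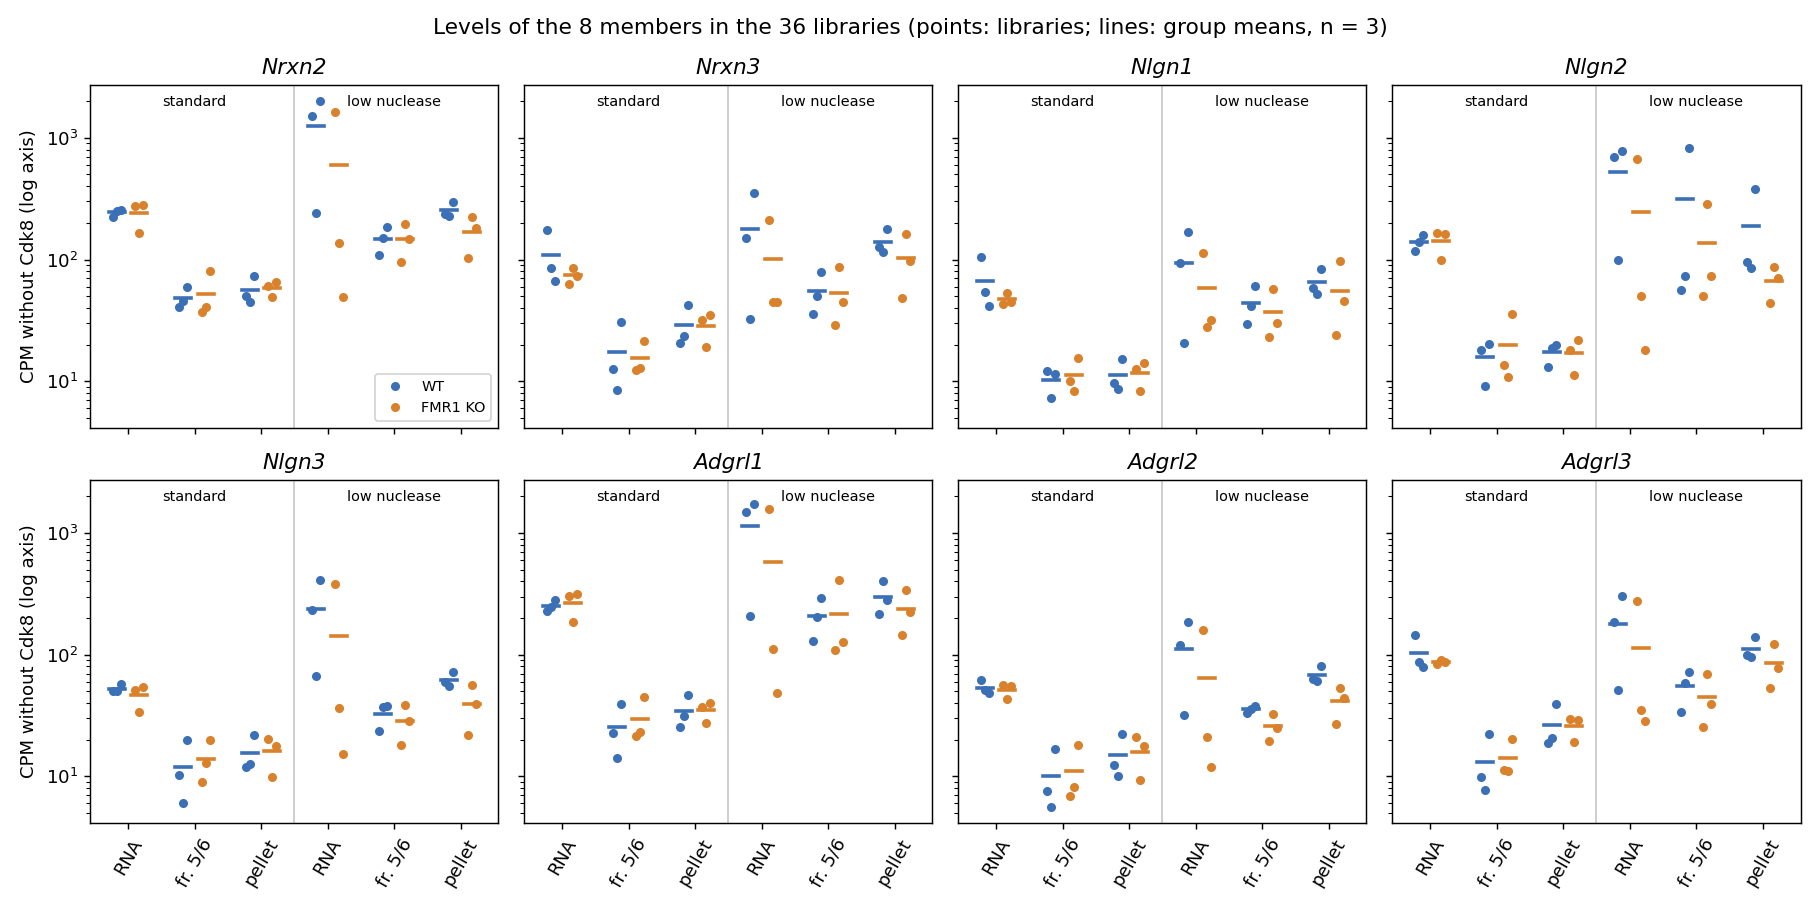
CPM of each member (log axis) in the 36 libraries, by library type and preparation; points are libraries, lines are group means (n = 3), WT blue and FMR1 KO orange. In the standard preparation every member is higher in RNA than in either RPF fraction. Scaled by library size alone, the median of all genes is also lower in the pellet than in RNA (log2 -1.26 in WT). The 3 low nuclease RNA libraries with most counts in 10 genes sit far below the other 3.

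The first question was how far each mRNA is carried by pellet ribosomes relative to its abundance in the brain, taken as pellet RPFs against RNA (occupancy). All 8 members lay below 0 in both genotypes. In WT, Nlgn2, Adgrl1, Nlgn1 and Nrxn2 fell, 4 of 8 against 34.2% of all genes lower. In FMR1 KO the same 4 and also Adgrl2 and Adgrl3 fell, 6 of 8 against 35.2% of genes. No member rose, while 31.1% of genes in WT and 31.8% in FMR1 KO did. The members' median was -0.88 in WT and -0.79 in FMR1 KO on the log2 scale, beside medians of -0.10 and -0.07 over all genes. In bulk libraries, fewer cells of a type and less RNA per cell cannot be told apart.

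Nlgn2 had the lowest estimate in both genotypes, with Adgrl1 within its SE. Without WT pellet replicate 3, Adgrl1 was lowest in WT, at -2.05. Nlgn2 measured 13.1, 18.8 and 20.0 CPM in the WT pellet and 117, 139 and 159 CPM in WT RNA. The FMR1 KO pellet gave 18.2, 11.3 and 21.7 CPM and FMR1 KO RNA 164, 98.6 and 161 CPM. Pellet and RNA libraries stood far apart in both genotypes. Its log2 occupancy was -1.84 ± 0.19 (SE), adjusted p = 1.23e-04, in WT. In FMR1 KO it was -1.97 ± 0.20 (SE), adjusted p = 1.46e-04.

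Adgrl1 came next. It measured 25.5, 31.2 and 46.5 CPM in the WT pellet against 227, 245 and 283 CPM in RNA, and 37.2, 27.4 and 40.1 against 301, 184 and 313 CPM in FMR1 KO. Its log2 occupancy was -1.70 ± 0.25 (SE), adjusted p = 6.97e-04, in WT. In FMR1 KO it was -1.82 ± 0.19 (SE), adjusted p = 1.57e-04. Nlgn1, with 9.68, 8.59 and 15.3 CPM in the WT pellet, had a log2 occupancy of -1.40 ± 0.41 (SE), adjusted p = 0.0175. Its WT interval ran from -2.36 to -0.45, and the FMR1 KO value was -0.93 ± 0.13 (SE), adjusted p = 7.34e-04. Nrxn2 stood at -0.94 ± 0.24 (SE), adjusted p = 0.00918, in WT and -0.92 ± 0.19 (SE), adjusted p = 0.00483, in FMR1 KO.

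Nrxn3 and Nlgn3 passed in neither genotype with edgeR under TMM and no replicate block. Nrxn3 had 20.6, 23.7 and 42.5 CPM in the WT pellet and a log2 occupancy of -0.74 ± 0.44 (SE), adjusted p = 0.173, in WT and -0.31 ± 0.15 (SE), adjusted p = 0.115, in FMR1 KO. Nlgn3 had 11.8, 12.8 and 21.9 CPM in the WT pellet against 50.5, 49.9 and 57.3 CPM in RNA, a log2 occupancy of -0.59 ± 0.26 (SE), adjusted p = 0.0833. Adgrl2 and Adgrl3 missed the threshold in WT with edgeR at -0.67 ± 0.32 (SE), adjusted p = 0.105, and -0.81 ± 0.37 (SE), adjusted p = 0.088. DESeq2 called Adgrl3 lower in WT (-0.77, adjusted p = 0.0394). In FMR1 KO they stood at -0.62 ± 0.18 (SE), adjusted p = 0.0178, and -0.66 ± 0.09 (SE), adjusted p = 5.56e-04. Pellet replicate 3 of WT gave the highest CPM of its group for all 8 members, and without it all 8 fell in WT, with a median of -1.27. Without WT RNA replicate 1, 3 were called (Nlgn1 was not), the median was -0.75, Nrxn3 stood at -0.21 and Nlgn1 at -0.91. Scaled by library size alone, the median of all genes moved to -1.26 in WT and -1.16 in FMR1 KO, and all 8 members stayed below it.

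**Figure D3:**
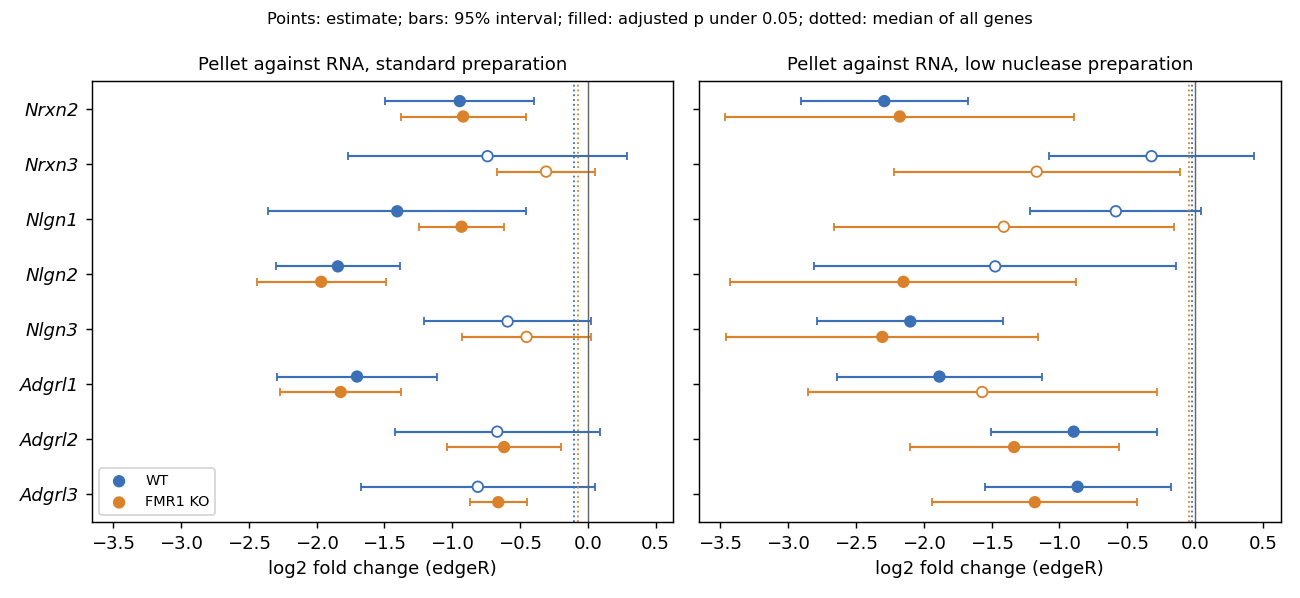
Log2 occupancy (pellet against RNA, edgeR) of each member with its 95% interval, standard preparation left and low nuclease right, WT blue and FMR1 KO orange; filled points passed an adjusted p of 0.05 and dotted lines mark the median of all genes. All points lie left of 0, with Nlgn2 and Adgrl1 lowest in the standard preparation.

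The second question was whether an mRNA's footprints are more frequent in the pellet than in fraction 5/6 (enrichment). The study saw ribosome clusters in both fractions, and of these only the pellet held the rough ER protein ribophorin. In earlier work that it cites, secretory mRNAs were more frequent in the pellet than in fraction 5/6. The part of this in the members' values was not tested. Occupancy and enrichment share the pellet libraries, and are not independent. Here all 8 members lay above 0 in both genotypes. In FMR1 KO, Adgrl3, Nrxn3, Adgrl1 and Nrxn2 rose, 4 of 8 against 10.1% of all genes higher, and none fell (1.39% of genes did). The members' median was 0.61, beside 0.01 over all genes. In WT none passed, and neither did nearly any other gene (0.0152% higher and 0.00761% lower). None of the 8 reached an unadjusted p of 0.05 in WT either, and DESeq2 also called none. The WT median was 0.47, beside -0.0015 over all genes.

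Adgrl3, a latrophilin that binds FLRT3 and teneurins, had the highest estimate in both genotypes, with Nrxn3 within its SE. In FMR1 KO Adgrl3 measured 29.6, 19.1 and 29.0 CPM in the pellet and 11.3, 11.0 and 20.3 CPM in fraction 5/6. The lowest pellet library was below the highest fraction 5/6 library, both being libraries that stood apart for all 8 members (pellet replicate 2 low, fraction 5/6 replicate 3 high). The CPM carry no TMM scaling, and the TMM factors of these libraries over all 36 were 0.628 and 1.27. Its log2 enrichment was 1.25 ± 0.12 (SE), adjusted p = 0.00222, in FMR1 KO. In WT it measured 18.9, 20.8 and 39.0 CPM in the pellet and 9.81, 7.72 and 22.1 CPM in fraction 5/6, a log2 enrichment of 1.05 ± 0.47 (SE), adjusted p = 0.64. With the library labelled replicate 3 left out of WT fraction 5/6, its WT log2 enrichment was 1.54 (adjusted p = 0.0983).

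Nrxn3 followed the same course. FMR1 KO pellets gave 31.6, 19.0 and 34.8 CPM and FMR1 KO fraction 5/6 12.3, 13.0 and 21.2 CPM, a log2 enrichment of 1.24 ± 0.12 (SE), adjusted p = 0.00229. WT pellets gave 20.6, 23.7 and 42.5 CPM and WT fraction 5/6 12.6, 8.51 and 30.7 CPM, with 0.82 ± 0.50 (SE), adjusted p = 0.64. The third WT fraction 5/6 value overlaps the pellet range, and without that library the log2 enrichment was 1.43 (adjusted p = 0.103). Adgrl1 rose in FMR1 KO (0.64 ± 0.13 SE, adjusted p = 0.0241), and so did Nrxn2 (0.57 ± 0.14 SE, adjusted p = 0.0478). The number of members called was 2 without fraction 5/6 replicate 1 or 2 or pellet replicate 1 or 3, 3 without pellet replicate 2 and 4 without fraction 5/6 replicate 3.

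The 3 neuroligins and Adgrl2 passed in neither genotype with edgeR, while DESeq2 called Adgrl2 higher in FMR1 KO (log2 enrichment 0.93, adjusted p = 0.0063). Adgrl2 reached 0.95 ± 0.25 (SE), adjusted p = 0.0551, in FMR1 KO, and Nlgn3 0.58 ± 0.19 (SE), adjusted p = 0.106. Nlgn1 stood at 0.40 ± 0.16 (SE), adjusted p = 0.145, and Nlgn2 at 0.22 ± 0.28 (SE), adjusted p = 0.646. For Nlgn2 the FMR1 KO interval ran from -0.46 to 0.89. Leaving out the library labelled WT fraction 5/6 replicate 3 raised the number of genes called in WT enrichment from 3 to 1262, called none of the members (adjusted p from 0.0983 to 0.74) and raised their median to 0.89. Leaving out WT pellet replicate 3 instead lowered the median to 0.08, with 5 of 8 members above 0. Scaled by library size alone, no member was called in FMR1 KO and Nlgn2 turned to -0.20, with all 8 above the median of all genes (-0.33).

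**Figure D4:**
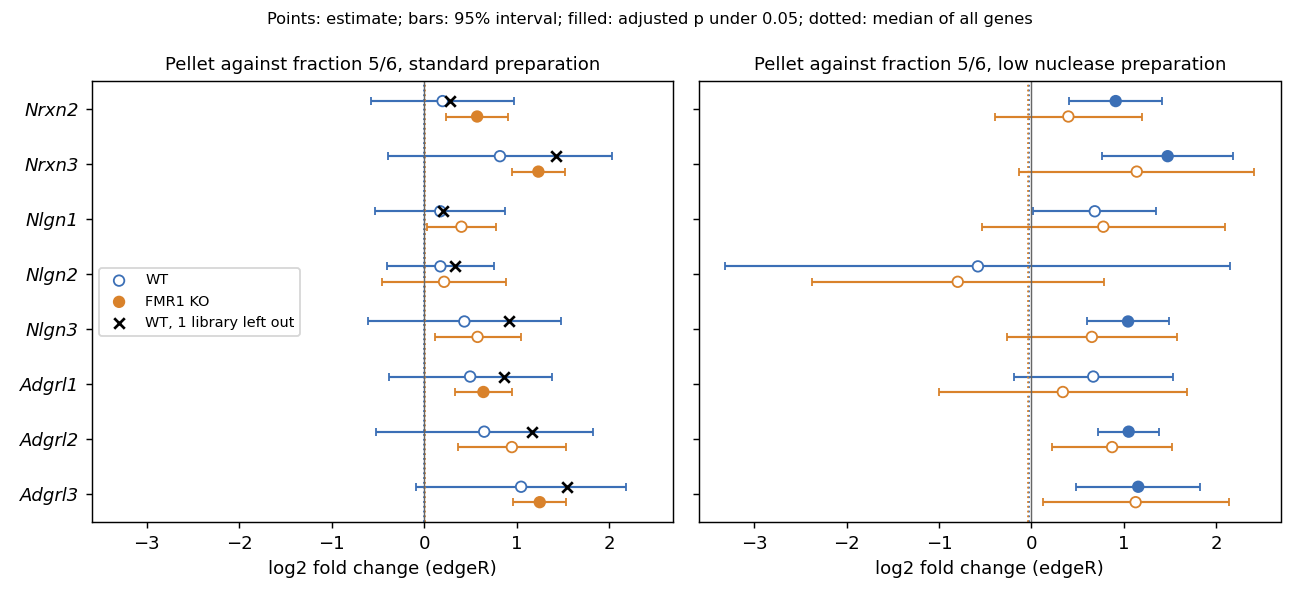
Log2 enrichment (pellet against fraction 5/6, edgeR) of each member with its 95% interval, standard preparation left and low nuclease right, WT blue and FMR1 KO orange; filled points passed an adjusted p of 0.05, dotted lines mark the median of all genes, and crosses give WT without the library labelled WT fraction 5/6 replicate 3. Nrxn3 and Adgrl3 lie furthest right in both genotypes of the standard preparation, and Nlgn2 has the widest intervals in the low nuclease preparation.

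The low nuclease preparation gave a second set of pellets and fractions. Member levels in its RPF libraries were several times those of the standard preparation: the 8 members together came to 1187 ± 292 CPM in the WT pellet (SD, n = 3), beside 205 ± 66.6 CPM in the standard WT pellet. The preparations differ at once in buffer, nuclease, digestion temperature and the way monosomes were recovered, so their parts cannot be told apart. Occupancy again lay below 0 for all 8 members in both genotypes. In WT, Nrxn2, Nlgn3, Adgrl1, Adgrl2 and Adgrl3 fell, 5 of 8 against 25.5% of genes lower. In FMR1 KO, Nrxn2, Nlgn2, Nlgn3, Adgrl2 and Adgrl3 fell, 5 of 8 against 12.8% of genes. No member rose, while 26.6% of genes in WT and 16.1% in FMR1 KO did. Scaled by library size alone, no member was called in either genotype, and calls over all genes fell from 8113 to 305 in WT and from 4410 to 216 in FMR1 KO. The medians were -1.18 and -1.49, beside -0.02 and -0.04 over all genes. Nrxn2 had the lowest WT value, -2.29 ± 0.26 (SE), adjusted p = 5.31e-04. Nlgn3 followed in WT at -2.10 ± 0.29 (SE), adjusted p = 0.00108, and was lowest in FMR1 KO at -2.31 ± 0.49 (SE), adjusted p = 0.0154. These values rest on RNA libraries of unequal make-up. Nrxn2 measured 1503, 242 and 2023 CPM in WT RNA and 1617, 137 and 49.2 CPM in FMR1 KO RNA, and the low values belong to the libraries with most counts in 10 genes. Without WT RNA replicate 2, 4 members were called lower in WT. Without FMR1 KO RNA replicates 2 and 3, which leaves 1 RNA library assumed to vary like the rest, 5 were called lower in FMR1 KO. None of the 8 was called in FMR1 KO without RNA replicate 2 alone, pellet replicate 1 or pellet replicate 3. In WT the number called was 3 without RNA replicate 3 or pellet replicate 1 or 2, and 6 without RNA replicate 1 or pellet replicate 3.

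Enrichment in the low nuclease preparation was higher in WT for Nrxn3, Adgrl3, Adgrl2, Nlgn3 and Nrxn2, 5 of 8 against 14.3% of genes higher, and no member was lower (8.58% of genes). In FMR1 KO none was called, against 9.31% of genes higher and 10.7% lower, 2 of 8 had an unadjusted p under 0.05, and DESeq2 called 3. With a replicate block, edgeR called 5 of 8 (smallest adjusted p = 0.0071), and more genes over all. The medians were 0.98 in WT and 0.72 in FMR1 KO, beside -0.02 and -0.03 over all genes. Nrxn3 measured 126, 115 and 177 CPM in the WT pellet and 35.8, 50.3 and 78.6 CPM in WT fraction 5/6. Its log2 enrichment was 1.47 ± 0.29 (SE), adjusted p = 0.0214. Adgrl2 measured 62.6, 60.7 and 80.4 CPM in the pellet and 32.9, 35.5 and 38.2 CPM in fraction 5/6. It reached 1.05 ± 0.14 (SE), adjusted p = 0.00905. Nlgn3 had 1.04 ± 0.19 (SE), adjusted p = 0.0165, and Adgrl3 1.15 ± 0.28 (SE), adjusted p = 0.0338. The number called in WT was 1 without pellet replicate 3, 2 without pellet replicate 1 or fraction 5/6 replicate 1 or 2, 3 without pellet replicate 2 and 5 without fraction 5/6 replicate 3.

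Nlgn2 was the exception, with estimates below 0 in both genotypes of the low nuclease preparation. It measured 95.6, 84.6 and 381 CPM in the WT pellet and 56.6, 72.9 and 821 CPM in WT fraction 5/6. FMR1 KO fraction 5/6 gave 50.3, 284 and 72.7 CPM. In each of these groups 1 library is several times above the other two, and it is replicate 3 in both WT fractions. The log2 enrichment was -0.58 ± 1.13 (SE), adjusted p = 0.73, in WT and -0.80 ± 0.65 (SE), adjusted p = 0.419, in FMR1 KO. Without WT fraction 5/6 replicate 3 the WT value was 1.61, and without replicate 3 of both fractions it was 0.53. Without FMR1 KO fraction 5/6 replicate 2 the FMR1 KO value was 0.27. No peaks of this preparation were used here, so where on Nlgn2 these reads lie was not tested.

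The third question was whether loss of FMRP changes these values. No member passed the threshold in the pellet, in fraction 5/6 or in RNA of the standard preparation. Few genes did at all: 0.0152% changed in the pellet, 0.0% in fraction 5/6 and 0.0735% in RNA. No member had an unadjusted p under 0.05 in any of the 3, and DESeq2 called none. In the pellet the log2 fold changes of the 8 ran from -0.04 to 0.07, with a median of 0.03. Their 95% intervals were wide, for example -0.50 to 0.46 for Nlgn2 and -0.84 to 0.96 for Adgrl2, and both estimates turned sign with single libraries left out. Leaving out WT pellet replicate 3 moved the median to 0.42, with all 8 above 0 and none called.

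In fraction 5/6 the 8 values ran from -0.43 to -0.03, all below 0. Scaled by library size alone, 7 of 8 were above 0 and 7 of 8 still below the median of all genes, and leaving out the library labelled WT fraction 5/6 replicate 3 moved the median from -0.18 to 0.20. Nrxn3 was furthest from 0 at -0.43 ± 0.38 (SE), adjusted p = 0.833, and stood at 0.15 without that library. In RNA the values ran from -0.52 to 0.10. Nrxn3 had -0.52 ± 0.31 (SE), adjusted p = 0.999, and Nlgn1 -0.47 ± 0.29 (SE), adjusted p = 0.999. WT RNA replicate 1 was the library highest for both genes, and without it Nlgn1 was at 0.0036 and Nrxn3 at -0.01.

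**Figure D5:**
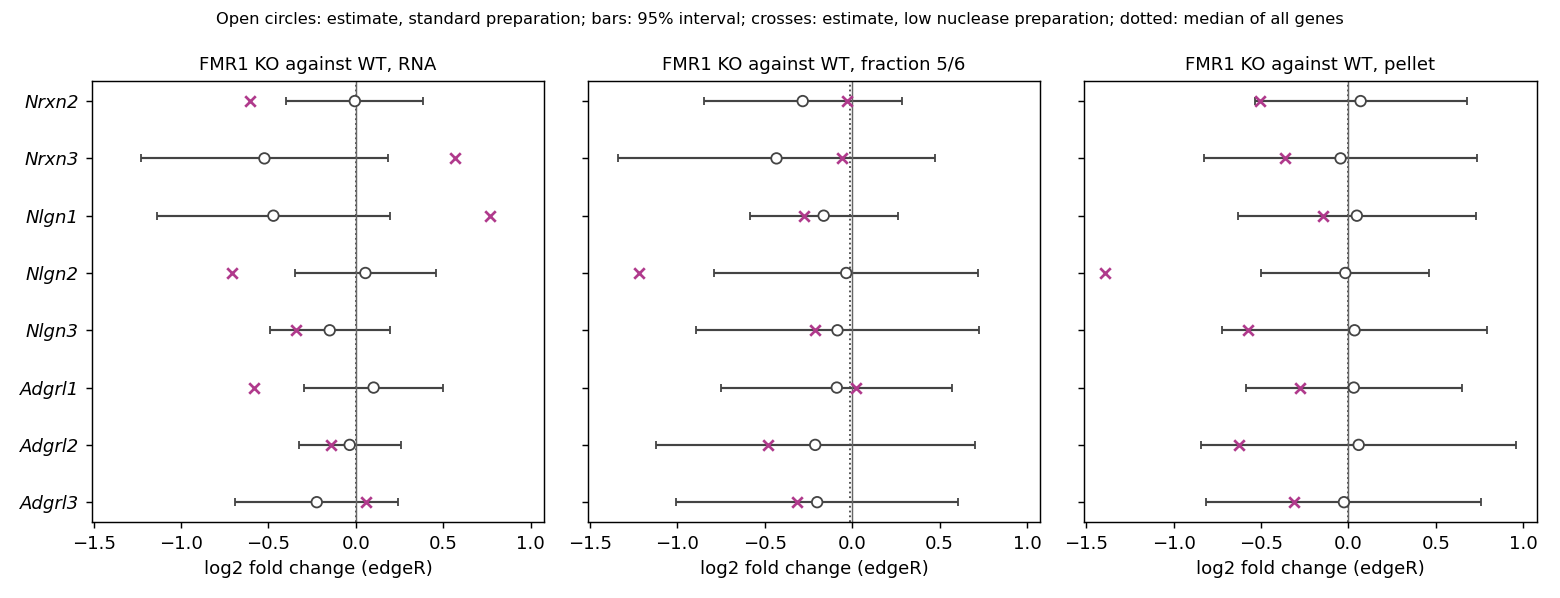
Log2 fold change of each member, FMR1 KO against WT (edgeR), in RNA, fraction 5/6 and pellet; open circles with 95% intervals are the standard preparation, crosses the estimates of the low nuclease preparation, and dotted lines the median of all genes. Every interval of the standard preparation includes 0.

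The difference between genotypes in occupancy and in enrichment was tested directly as an interaction over 12 libraries. No member passed in either. For occupancy the interaction ran from -0.09 to 0.51 with a median of 0.13, and 0.0669% of all genes were called. Without WT pellet replicate 3 that median was 0.54, with all 8 above 0 and none called. Without WT RNA replicate 1 it was 0.002, with 4 of 8 turned, and without WT pellet replicate 2 it was -0.03. For enrichment it ran from 0.01 to 0.38 with a median of 0.18, and 0.0% were called. The 4 members called in FMR1 KO enrichment and not in WT are not shown to differ between genotypes: for Adgrl3 the interaction was 0.17 ± 0.51 (SE), adjusted p = 0.97, with an interval of -0.96 to 1.29. For Nrxn3 it was 0.38 ± 0.54 (SE), adjusted p = 0.926. Both turned when the library labelled WT fraction 5/6 replicate 3 was left out, to -0.30 for Adgrl3 and -0.20 for Nrxn3. The median enrichment interaction without that library was -0.22, and without WT pellet replicate 3 to 0.61.

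In the low nuclease preparation FMR1 KO pellets gave log2 fold changes of -1.39 to -0.15, all 8 below 0 and none called. All 3 FMR1 KO pellet libraries were below all 3 WT libraries for Nrxn2 (103, 222 and 182 against 238, 228 and 299 CPM) and for Adgrl2 (26.8, 53.7 and 43.8 against 62.6, 60.7 and 80.4 CPM), 2 of 8 members beside 9.01% of genes. In fraction 5/6 this held for Adgrl2 alone, 1 of 8 beside 8.05% of genes. No member had its FMR1 KO libraries all above WT in low nuclease pellets (1.64% of genes) or fraction 5/6 (9.84%), or apart in either direction in RNA (0.0147% above and 0.0368% below). In the standard preparation the genotypes overlapped for all 8 members, while they were apart for 3.07% of genes upward and 2.34% downward in the pellet, 5.37% and 0.918% in fraction 5/6, and 2.28% and 5.3% in RNA. With the library labelled replicate 3 left out of WT fraction 5/6, FMR1 KO was above WT for Adgrl3 alone, 1 of 8 beside 12.4% of genes, and below for none (2.05%).

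Nlgn3 is X-linked, and its RNA was 50.5, 49.9 and 57.3 CPM in WT and 51.7, 33.9 and 54.2 CPM in FMR1 KO (-0.15 ± 0.15 SE, adjusted p = 0.999). The libraries differed in Y-linked RNA. The Y-linked Ddx3y was 35.4 to 38.0 CPM in standard WT RNA and 0.0610 to 0.131 CPM in standard FMR1 KO RNA, while it was 33.6 to 44.1 CPM in FMR1 KO pellets and 41.0 to 46.9 CPM in WT pellets. Uty and Kdm5d, also Y-linked, were at or below 0.0654 CPM in standard FMR1 KO RNA and at or above 6.54 CPM in FMR1 KO pellets, and Eif2s3y was listed at 0 in all 3 standard FMR1 KO RNA libraries. In the standard preparation, FMR1 KO occupancy and the comparison of RNA between genotypes therefore set libraries with Y-linked RNA against libraries almost without it. The part of this in the members' values was not tested.

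The wider set of trans-synaptic partners, 53 genes of which all were tested, moved both ways in occupancy of the standard preparation. In WT 11 rose and 14 fell, with a median of -0.20, beside 31.1% and 34.2% of all genes. In FMR1 KO 17 rose and 18 fell, beside 31.8% and 35.2% of all genes. In low nuclease occupancy 3 rose and 22 fell in WT (median -0.65), beside 26.6% and 25.5% of all genes, and 2 rose and 16 fell in FMR1 KO (median -0.82), beside 16.1% and 12.8%. In the standard preparation the extracellular ligands and partners (cerebellins, LRRTMs, FLRTs, teneurins and others) had 3 higher and 8 lower of 23 in WT. The intracellular partners (CASK, MAGUKs, Shanks, gephyrin and others) had 7 higher and 5 lower of 17. The other synaptic organisers had 1 higher and 1 lower of 13. The lowest called were Flrt2, a latrophilin ligand, at -2.24 ± 0.22 (SE), adjusted p = 8.90e-05, and Shank1, a postsynaptic scaffold, at -2.06 ± 0.12 (SE), adjusted p = 1.04e-05. The highest were Clstn3, a calsyntenin, at 2.26 ± 0.42 (SE), adjusted p = 0.00217, and Il1rapl1, a receptor-like synaptic organiser, at 6.81 ± 0.52 (SE), adjusted p = 2.81e-05. In enrichment none of the 53 was called in WT by edgeR and 17 rose and 0 fell in FMR1 KO (10.1% and 1.39% of all genes), with medians of 0.28 and 0.43. By role, the FMR1 KO medians were 0.47 (extracellular), 0.50 (other organisers) and 0.02 (intracellular). The numbers that rose were 7 of 23, 4 of 13 and 6 of 17. Without the library labelled WT fraction 5/6 replicate 3, 3 rose and 0 fell in WT (median 0.48), beside 7.71% and 1.76% of all genes. In the low nuclease preparation 22 rose and 2 fell in WT (14.3% and 8.58% of all genes), and 9 rose and 1 fell in FMR1 KO (9.31% and 10.7%). None was called by edgeR between genotypes in any of the 5 comparisons of the standard preparation, nor, with WT fraction 5/6 replicate 3 left out, in fraction 5/6 or in the enrichment interaction.

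The members differ in length and base composition. Their exons together span 5785 bases (Nlgn2) to 17750 bases (Adgrl3). Across the 8 members log2 exon length and FMR1 KO enrichment had Pearson's r of 0.69, beside 0.28 over 13161 genes. GC content and FMR1 KO occupancy had r of -0.65, beside -0.07 over 15997 genes. These are descriptions over genes of the same libraries, and genes are not independent replicates. The study also sets its libraries beside 3 published mRNA lists. Of the 2 lists of mRNAs crosslinked to FMRP, that of Darnell et al. holds 4 members (Nrxn2, Nrxn3, Nlgn2, Nlgn3) and that of Maurin et al. 4 (Nrxn2, Nlgn2, Adgrl1, Adgrl3). The list of Shah et al., mRNAs whose ribosomes resist run-off, holds 1 (Nrxn3). Nlgn1 and Adgrl2 are on none of the lists as read here (749, 262 and 185 names).

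Over the 12 group means, log2 CPM of the 8 members correlated in every pair (lowest r = 0.880, Nrxn3 with Nlgn2). The closest pairs were Nrxn2 with Nlgn3 (r = 0.991), Adgrl2 with Adgrl3 (r = 0.991) and Nrxn3 with Adgrl3 (r = 0.989). Among the other 11244 genes with a mean of at least 5 CPM, those nearest the members' mean pattern were Dagla, Sema4d, Ntrk3, Clcn3 and Adcy8, with r from 0.993 to 0.995. The groups differ in library type and preparation, which all genes share, so these values describe likeness over 12 points and carry no test.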

How the data were processed

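Per the labels and the study's methods, the authors trimmed reads with cutadapt 2.10, removed rRNA and ncRNA reads with Bowtie2 2.3.5, aligned the rest to GRCm38 with STAR 2.7.8a, removed Picard-marked duplicates with SAMtools 1.19.2 and deposited raw counts per gene from featureCounts 2.2.0. Removing duplicates from short footprints lowers the counts of strong pileups. The deposited peak lists give the coverage signal of each peak in reads, per library and not scaled.

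Cdk8 and 26 rows of other biotypes were left out, and 27 IDs absent from the annotation were kept. The remaining counts were filtered with filterByExpr, scaled by TMM and tested with edgeR 4.0.16 (glmQLFit and glmQLFTest, R 4.3.3, Benjamini-Hochberg over all genes tested, threshold 0.05), with only the compared groups in a fit. SE is the log2 fold change over the root of F, and intervals are 95%. The fit code was also run on simulated counts with the same dispersion in all genes, unlike these libraries. That run checks the code and not the results here. The study describes the libraries of a group as separate biological preparations.

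Members and lists were chosen with earlier results of these data known. Named genes are the 8 members and, of a list of 53 trans-synaptic partners, the 2 highest and 2 lowest past the threshold in WT occupancy. Genes of like pattern were compared on log2(CPM + 0.50), from a mean of 5 CPM. Alternatives were DESeq2 1.42.0, library size alone, all genes with 1 count, all biotypes, Cdk8 kept, all groups of a preparation in 1 fit, the replicate block, each library left out, CPM scaled by TMM, and other rules for peaks.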

Additional observations from a re-analysis of the deposited data

How the results depend on the processing

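The standard RPF libraries hold far fewer counts than the RNA libraries, and with 3 libraries a group 1 library decides several values. With the totals counted with Cdk8, the summed WT pellet level was 112 CPM in place of 205 CPM, and 1 of the 6 Nlgn2 peaks was above the median height of its library. Of 848 values of the members in occupancy and enrichment under the alternatives, 12 turned sign. Of 656 values in the comparisons of genotypes, in which no member was called under any alternative run, 117 did. Where a value moved, the cause was not tested.

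Of members called, WT occupancy (4) gave 8 with library size alone and 3 to 8 with a library left out. FMR1 KO enrichment (4) gave 0 with library size alone, 1 with all groups in 1 fit and 2 to 4 with a library left out. In the low nuclease preparation, WT occupancy (5) gave 0 with library size alone and 3 to 6 with a library left out, and FMR1 KO occupancy (5) gave 8 with DESeq2, 0 with library size alone and 0 to 6. WT enrichment (5) gave 3 with library size alone, 1 with all groups in 1 fit and 1 to 5. FMR1 KO enrichment (0) gave 3 with DESeq2 and 0 to 1.

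Of all genes called in the standard preparation, WT enrichment (3) gave 90 with DESeq2, 8 with library size alone, 6 with all groups in 1 fit and 0 to 1262 with a library left out. FMR1 KO enrichment (1527) gave 163 with library size alone and 547 to 1386. Between genotypes, the pellet (2) gave 91 with DESeq2, 12 with library size alone and 0 to 8. Fraction 5/6 (0) gave 77 with DESeq2, 3 with library size alone, 8 with all groups in 1 fit, 7 in the low nuclease preparation and 0 to 11. RNA (12) gave 24 with DESeq2, 7 with all groups in 1 fit and 0 in the low nuclease preparation, and 9 to 15 with a library left out. The occupancy interaction (11) gave 58 with DESeq2, 4 with all groups in 1 fit, 3 in the low nuclease preparation and 7 to 27. The enrichment interaction (0) gave 41 with DESeq2, 3 in the low nuclease preparation and 0 to 4. In the low nuclease preparation, WT occupancy (8113) gave 305 with library size alone and 6155 to 9446, and FMR1 KO occupancy (4410) gave 216 with library size alone, 7826 with all groups in 1 fit and 1490 to 5891. WT enrichment (3567) gave 1229 with all groups in 1 fit and 986 to 2543 (307 without replicate 3 of both fractions), and FMR1 KO enrichment (3116) gave 5393 with library size alone, 1003 with all groups in 1 fit and 336 to 2072.

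Among values given in the report, those that turned with a library left out were, on the log2 scale, in WT enrichment, those of Nrxn2 (-0.12 to 0.40), Nlgn1 (-0.19 to 0.39) and Nlgn2 (-0.010 to 0.34), in FMR1 KO enrichment that of Nlgn2 (-0.016 to 0.52), and between genotypes those of Nrxn3 in fraction 5/6 (-0.67 to 0.15), Nlgn1 and Nlgn3 in RNA (-0.73 to 0.0036 and -0.25 to 0.013), Nlgn2 and Adgrl2 in the pellet (-0.17 to 0.17 and -0.21 to 0.54) and Nrxn3 and Adgrl3 in the enrichment interaction (-0.20 to 0.86 and -0.30 to 0.66). Of all 8 members, 6 turned in fraction 5/6 and 6 in the enrichment interaction without the library labelled WT fraction 5/6 replicate 3, 5 in the pellet without WT pellet replicate 1 or 2, 6 and 4 in the enrichment interaction without WT pellet replicate 2 and 1, and 4 in RNA and 4 in the occupancy interaction without WT RNA replicate 1. In the low nuclease preparation they were Nrxn3 in WT occupancy (-0.57 to 0.0042) and Nlgn2 in enrichment (-1.63 to 1.61 in WT and -1.17 to 0.27 in FMR1 KO). With library size alone, 7 members turned in fraction 5/6 between genotypes and 7 in the enrichment interaction (Adgrl3 to -0.10), Nlgn2 turned to -0.20 in FMR1 KO enrichment and Nrxn3 to 0.033 in low nuclease FMR1 KO occupancy. In the low nuclease preparation, 7 of 8 turned in the enrichment interaction, 6 in the occupancy interaction, 5 in RNA, 5 in the pellet and 1 in fraction 5/6. There, between genotypes in RNA, Nrxn3 was at 0.57 and Nlgn1 at 0.77, and Adgrl2 was at -0.63 in the pellet, Nrxn3 at -0.31 and Adgrl3 at -0.0088 in the enrichment interaction. The use of that preparation for the genotype comparisons, and the fits without 2 libraries, were chosen after seeing the data.

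Replicate numbers are shared between groups. Deviations of same-numbered libraries correlated from -0.12 to 0.33 over all comparisons, and in none was every pair above 0.1. The study's methods take the pellet and fraction 5/6 from the same gradient, but no label says that a number marks a shared preparation. Whether same-numbered libraries are paired is therefore not settled here. In 1 of the comparisons, low nuclease WT enrichment, all 3 correlated best with their own number, which is a hint from the data. The same-numbered values were 0.077 to 0.19 there, and those of other numbers at most 0.028. With the replicate block, 5 members were called in WT occupancy and 7 in FMR1 KO occupancy, with Nlgn3 added in both (adjusted p = 0.0356 and 0.0186 by edgeR), 6 in low nuclease WT occupancy and 6 in low nuclease WT enrichment, 2 in FMR1 KO enrichment and 5 in low nuclease FMR1 KO enrichment, and Nlgn2 turned to 0.074 in low nuclease WT enrichment. The block gave, over all genes, 0 in WT enrichment, 856 in FMR1 KO enrichment, 0 in the pellet, 7 and 1 in the occupancy and enrichment interactions, and in the low nuclease preparation 2769 in FMR1 KO occupancy and 4683 in FMR1 KO enrichment.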
